A study of Mus musculus with 9 samples.

Results

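Platelet granules are the stores that platelets empty when they are activated, and megakaryocytes, the marrow cells that shed platelets, build and fill them. Transcripts of 10 genes for granule cargo and granule formation were followed in mouse marrow progenitors with and without activating Jak2 mutations. The genes were taken by symbol, as the rows for Pf4, Ppbp, Vwf, Clu, Selp, Thbs1, Slc35d3, Nbeal2, Vps33b and Treml1 among 17769 genes in the count table. Every one of the 10 was found once and passed the filter on low counts, which 13608 genes passed in all.

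The 9 libraries are from bone marrow of C57BL/6N mice, from which MEP (megakaryocyte-erythroid progenitors) were sorted by flow cytometry. MEP are the stage that gives rise to megakaryocytes and to red cells. The group VF (libraries VF 1, 2 and 3) carried SclCre and the V617F mutation and was sampled 12 weeks after induction. The group E12 (E12 1, 2 and 5) carried SclCre and an exon 12 mutation and was sampled after 6 weeks, and the group WT (WT 50, 51 and 52) was sampled after 12 weeks. Jak2 is the kinase that relays signals of the thrombopoietin and erythropoietin receptors, and SclCre is a recombinase under the control of the Scl (Tal1) gene, which is active in blood stem and progenitor cells. Induction was by 5 daily intraperitoneal injections of tamoxifen. The labels do not say whether WT carried SclCre or whether replicates are separate mice, so the p-values measure the spread between these libraries, which may be technical. E12 differs from both other groups in weeks as well as in genotype, which cannot be told apart. The WT libraries also carry numbers from another series of numbers than the mutant libraries, and this cannot be told apart from genotype either. Of the markers of MEP, the erythroid and megakaryocyte factor Gata1 was read in every library (179 to 1025 CPM), as was Kit (60.8 to 587 CPM), the receptor for stem cell factor. Being read in every library does not make their levels alike between the groups. The marker lists that hold them, the erythroid markers for Gata1 and the MEP gate for Kit, differed between the groups. At an adjusted p under 0.05 (edgeR), 4 of 6 genes of the MEP gate were higher and 0 lower in VF than in WT. Cd34, which the usual gate holds low, was among the 4. Of 10 erythroid markers 0 were higher and 8 lower in VF than in WT.

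Alpha granules hold clotting and adhesion proteins, chemokines and growth factors that are either made by the megakaryocyte or taken up from plasma. Their membrane carries receptors that reach the platelet surface when the granule fuses, and their formation from sorting endosomes needs dedicated trafficking proteins. Dense granules are a separate kind of store, related to lysosomes, that holds small molecules such as serotonin and ADP. In VF, 8 of the 10 granule genes were higher than in WT, with Vps33b and Treml1 not called, and the mean of each gene in E12 lay between those of the other groups.

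Counts are given as CPM, the reads of a gene per 1000000 reads of its library after scaling by TMM factors, and as RPKM, which is CPM per kilobase of gene length, where genes are compared with each other. A single read came to 0.0311 to 0.0552 CPM. Total counts were 19256431 to 21331168 in VF, 20328414 to 23499914 in E12 and 33838681 to 39736096 in WT. The libraries also differed in how reads spread over gene lengths. Genes shorter than 1 kb took 8.24 to 8.97% of counts in VF and 6.92 to 8.79% in E12, against 27.9% in WT 50, 14.1% in WT 51 and 11.2% in WT 52. WT 50 stood apart in its TMM factor of 0.456, with 0.841 and 0.869 in the other WT libraries, and E12 5 stood apart in its hemoglobin reads, with 3.37% of counts against 0.104 and 0.0786% in E12 1 and E12 2. Results that rest on either library are given with and without it.

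Start-site sequences were available from RefSeq (GRCm38.p6) for 6 of the 10 genes, and the 4 shown here are those of the neighbouring chemokine genes Pf4 and Ppbp and of a membrane and a formation gene, so that genes of different roles that were higher together in VF can be read side by side. Each is the 250 bases before the start of the gene, on the strand of the gene, from chr5:90772185-90772434 (plus strand) for Pf4, chr5:90768268-90768517 (plus strand) for Ppbp, chr1:164115014-164115263 (plus strand) for Selp and chr9:110654162-110654411 (minus strand) for Nbeal2. Capitals mark the letters AGGAAG, one form of the core bound by ETS factors such as Fli1, or the same letters on the opposite strand.
Pf4: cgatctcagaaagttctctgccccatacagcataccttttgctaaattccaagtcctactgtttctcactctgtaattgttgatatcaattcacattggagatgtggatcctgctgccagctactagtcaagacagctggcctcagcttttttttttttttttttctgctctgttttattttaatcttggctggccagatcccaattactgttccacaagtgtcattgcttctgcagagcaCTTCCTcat
Ppbp: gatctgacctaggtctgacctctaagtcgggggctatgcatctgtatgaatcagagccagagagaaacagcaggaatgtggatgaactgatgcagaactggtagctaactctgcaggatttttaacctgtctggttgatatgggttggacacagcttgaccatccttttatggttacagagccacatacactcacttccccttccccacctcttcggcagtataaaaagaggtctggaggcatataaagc
Selp: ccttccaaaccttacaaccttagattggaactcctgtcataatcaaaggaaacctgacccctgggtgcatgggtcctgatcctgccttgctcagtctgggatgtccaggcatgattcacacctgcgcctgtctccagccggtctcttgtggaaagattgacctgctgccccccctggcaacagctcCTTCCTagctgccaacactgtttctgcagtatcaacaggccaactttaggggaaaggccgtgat
Nbeal2: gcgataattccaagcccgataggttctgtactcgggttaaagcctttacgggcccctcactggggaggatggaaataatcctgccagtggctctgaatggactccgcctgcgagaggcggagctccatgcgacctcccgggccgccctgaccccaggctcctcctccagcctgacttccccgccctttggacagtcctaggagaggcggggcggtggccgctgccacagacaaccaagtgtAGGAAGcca
The match ended 4 bases before the start in both Pf4, on the opposite strand, and Nbeal2, on the strand of the gene, and lay 64 to 59 bases before the start in Selp, on the opposite strand. Searched on both strands, AGGAAG occurred in 3 of the 6 windows and in 28.8% of the windows of the same length before 13517 tested genes. The GATA letters AGATAA, the ETS letters CGGAAG, the RUNX letters TGTGGT and the NF-E2 letters TGAGTCA were each in 0 of the 6 windows, and in 6.5%, 24.2%, 11.3% and 3.3% of the tested genes' windows. The ETS forms share the letters GGAAG. These matches describe letters and not bound sites.

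The first question was how the granule genes differed between VF and WT, which were sampled at the same time. In VF 8 of the 10 were called higher than in WT and 0 lower, at an adjusted p under 0.05. Each adjusted p is from the quasi-likelihood test of edgeR, adjusted by the method of Benjamini and Hochberg over all 13608 tested genes, unless another tool is named. Among all tested genes 27.7% were called higher in VF and 20.9% lower. All 10 were above every WT library in every VF library, which held for 39.7% of tested genes, while 23.0% lay below WT in the same way. All 10 log2 fold changes were above 0, in VF as in E12. In VF their median was 5.54, against 0.36 over all tested genes. The members were chosen with these results in view, so the counts describe the genes and do not set them apart from others. Against WT, E12 had 6 of the 10 called higher and 0 lower, where 23.9% of all tested genes were higher and 18.1% lower. The E12 and WT libraries did not overlap for the same 6, all higher in E12, where 33.0% of tested genes were higher and 20.3% lower without overlap. The median over the 10 was 3.51 against 0.36 over all tested genes. With Ppbp and Thbs1 entered at their lower bounds, that median was 3.39 in E12 and again 5.54 in VF. E12 had 4 of the 10 called lower than VF and 0 higher, where 1.02% of all tested genes were lower and 2.19% higher, and the median was -2.56 against -0.05. Group means ran in the order VF, E12, WT for 10 of 10 genes and for 32.3% of all tested genes. In bulk RNA, more cells of a kind and more RNA per cell cannot be told apart.

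**Figure D1:**
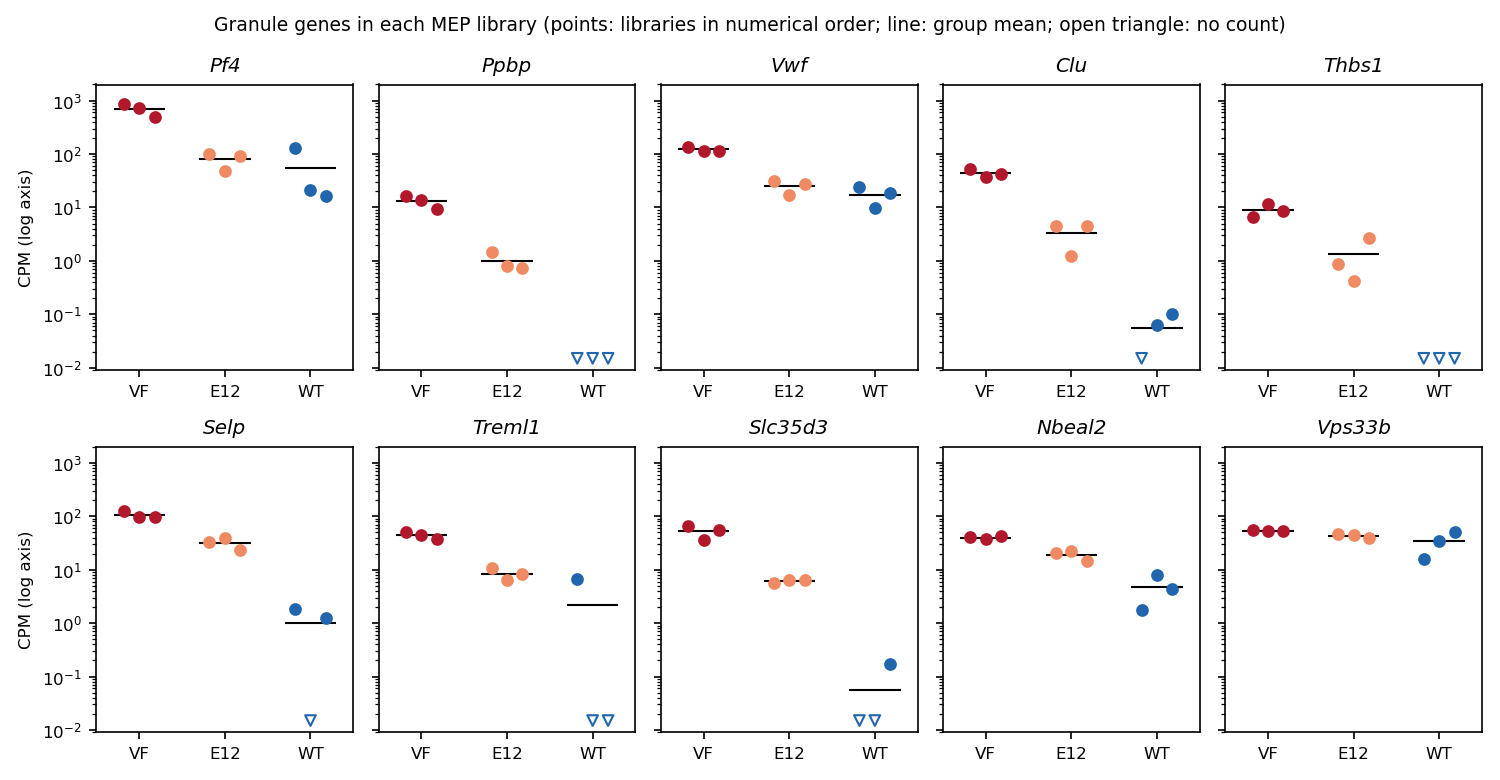
CPM of the 10 granule genes in each library on a log axis, by group (VF, E12, WT), with points for libraries, lines for group means and open triangles for libraries without a read. Pf4 reached 877 CPM in VF 1 and had the highest levels in the plot, Ppbp and Thbs1 had no read in any WT library, and the Vps33b points of the 3 groups lie closest together.

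Among the cargo genes, Pf4 and Ppbp encode chemokines of the CXC family, platelet factor 4 and the precursor of neutrophil-activating peptide 2. They lie next to each other on chromosome 5 on the plus strand, Ppbp at 90768518 to 90770063 and Pf4 at 90772435 to 90773383 (GRCm38), with 2371 bases between them, and each has 3 exons. Pf4 read 877, 736 and 503 CPM in VF 1, 2 and 3, 99.8, 48.0 and 90.4 in E12 1, 2 and 5, and 130, 21.2 and 16.2 in WT 50, 51 and 52. The VF libraries lay above all others, whereas WT 50 lay above all E12 libraries and the other WT libraries below them. The log2 fold change of Pf4 was 3.67 ± 0.80 (SE, n = 3 per group) in VF over WT, with an adjusted p of 0.0057. It was 5.10 without WT 50, 2.97 without WT 51, 2.91 without WT 52 and 5.57 with an offset for gene length, and was called in each. In E12 over WT it was 0.51 ± 0.72 with an adjusted p of 0.59. That value rests on WT 50, since without it the log2 fold change was 1.94 with an adjusted p of 0.0024, and it was -0.18 without WT 51 and -0.25 without WT 52.

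Ppbp was read at 16.5, 14.1 and 9.33 CPM in VF 1, 2 and 3 and at 1.48, 0.80 and 0.74 CPM in E12 1, 2 and 5. No WT library held a Ppbp read, which allows up to 3 reads over the group. Ppbp was thus at least 356-fold higher in VF (1047 reads, adjusted p = 0.00031) and at least 26.9-fold higher in E12 (76 reads, adjusted p = 0.0018) than in WT. Without single libraries these bounds ran from 212 to 405 and from 16.1 to 30.2. In VF the pair kept a near constant proportion. VF 1, 2 and 3 had 53.2, 52.4 and 53.9 Pf4 reads per Ppbp read, or 53.0 over their sum (exact 95% interval 49.9 to 56.4, counting error only). E12 had 67.3, 60.0 and 122.5 in E12 1, 2 and 5, or 77.6 over the sum (61.9 to 98.6), an interval that does not meet that of VF. Of the single E12 libraries only E12 5 (76.3 to 211) lay apart from VF, and the intervals of E12 1 (48.9 to 95.3) and E12 2 (39.0 to 97.2) include its value. WT held 3502 Pf4 reads and 0 Ppbp reads, a ratio of at least 1167. Of these Pf4 reads 2346 were from WT 50. The ratio was at least 782 in WT 50, 227 in WT 51 and 158 in WT 52. Pf4 (588 bases) is shorter than Ppbp (1080 bases), and WT held more of its reads in short genes, for which these ratios were not adjusted. Reads of 1 library are not replicates, and the ratios of single E12 libraries rest on 38, 21 and 17 Ppbp reads.

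Vwf encodes von Willebrand factor, the large multimer that ties platelets to the vessel wall and that endothelial cells also store. The gene spans 125552948 to 125686679 on chromosome 6 (plus strand, 52 exons). Its levels were 136, 116 and 115 CPM in VF 1, 2 and 3, 31.6, 17.4 and 27.1 in E12 1, 2 and 5, and 24.3, 9.69 and 18.3 in WT 50, 51 and 52. VF stood above both groups, while E12 and WT overlapped. Vwf was higher in VF than in WT, with a log2 fold change of 2.81 ± 0.38 and an adjusted p of 0.00075, and E12 over WT had 0.54 ± 0.35 (adjusted p = 0.24). Vwf is one of the longest of the 10 genes at 8834 bases, and with the offset, which removes each library's trend of level with gene length, the log2 fold change fell to 1.12 in VF (adjusted p = 0.045) and to -0.90 in E12 (adjusted p = 0.11).

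Clu encodes clusterin, a secreted chaperone and apolipoprotein, and lies on chromosome 14 from 65968483 to 65981548 (plus strand, 9 exons). It had 52.1, 37.0 and 41.8 CPM in VF 1, 2 and 3, and 4.45, 1.26 and 4.43 in E12 1, 2 and 5. WT held 0, 2 and 3 reads in WT 50, 51 and 52. The 3 groups did not overlap. The log2 fold change was 9.38 ± 0.82 in VF over WT (adjusted p = 0.00017) and 5.69 ± 0.75 in E12 over WT (adjusted p = 0.0014), each resting on 5 WT reads.

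Thbs1 encodes thrombospondin 1, a matrix glycoprotein that alpha granules release, and lies on chromosome 2 from 118111876 to 118127133 (plus strand, 22 exons). VF 1, 2 and 3 had 6.56, 11.6 and 8.43 CPM, E12 1, 2 and 5 had 0.86, 0.42 and 2.74, and WT had no read. The groups did not overlap, and of the cargo genes Thbs1 had the lowest VF level per length. Thbs1 was at least 236-fold higher in VF (694 reads, adjusted p = 0.0011) and at least 34.0-fold higher in E12 (96 reads, adjusted p = 0.0044) than in WT. E12 5 held 63 of the 96 reads, and without it Thbs1 was at least 16.9-fold higher (33 reads, adjusted p = 0.010). Without single libraries the bounds ran from 141 to 268 in VF and from 16.9 to 46.4 in E12. Its exons share 208 bases with an antisense RNA gene, Gm29233, and libraries without strand cannot separate the 2.

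Of the granule membrane proteins, Selp encodes P-selectin, which binds leukocytes once granules have fused, and lies on chromosome 1 from 164115264 to 164150026 (plus strand, 16 exons). Selp read 124, 95.2 and 95.9 CPM in VF 1, 2 and 3 and 32.8, 38.7 and 23.2 in E12 1, 2 and 5. WT 50, 51 and 52 had 1.82, 0 and 1.26. No library of 1 group overlapped another group. Selp was higher by a log2 fold change of 6.72 ± 1.03 in VF (adjusted p = 0.0013) and 4.99 ± 0.96 in E12 (adjusted p = 0.0052) over WT. Without WT 50 these were 7.33 and 5.59 and without WT 51, which had no read, 5.90 and 4.16, all of them called. Its exons share 438 bases with Gm16548, a gene that is counted in the table too, and 186 with the antisense gene Gm16587, which is not. Both lie on the other strand, so the reads of Selp are uncertain to that extent.

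Treml1 encodes TLT-1, a receptor of the TREM family kept in alpha granules of resting platelets, and lies on chromosome 17 from 48359916 to 48367176 (plus strand, 6 exons). It had 51.5, 44.9 and 36.9 CPM in VF 1, 2 and 3 and 10.6, 6.48 and 8.21 in E12 1, 2 and 5. WT 50 had 6.68 CPM, from 121 reads, and WT 51 and WT 52 had none. Only WT 50 reached into the range of E12, and every VF library lay above all others. Treml1 was not called, with log2 fold changes of 4.36 ± 1.65 in VF (adjusted p = 0.053) and 1.96 ± 1.50 in E12 (adjusted p = 0.32) over WT. Both comparisons turn on WT 50. Without it WT held no Treml1 read, and Treml1 was at least 915-fold higher in VF (adjusted p = 1.1e-05) and at least 172-fold higher in E12 (adjusted p = 7.2e-05).

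Of the genes for granule formation, Slc35d3 encodes a membrane protein of the nucleotide sugar transporter family that mouse platelets need for dense granules. It lies on chromosome 10 from 19847917 to 19856634 (minus strand, 2 exons). VF 1, 2 and 3 had 65.6, 35.8 and 55.5 CPM, and E12 1, 2 and 5 had 5.54, 6.44 and 6.43. WT had 0 reads in WT 50 and WT 51 and 5 reads in WT 52. The 3 groups did not overlap, and the E12 libraries lay close together (6.14 ± 0.513 CPM, SD, n = 3). The log2 fold change was 9.62 ± 0.90 in VF (adjusted p = 0.0002) and 6.53 ± 0.83 in E12 (adjusted p = 0.0012) over WT. These values rest on the 5 reads of WT 52. Without it WT held none, and Slc35d3 was at least 873-fold higher in VF and at least 103-fold higher in E12. Without WT 51 the log2 fold changes were 8.86 and 5.77, both called.

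Nbeal2 encodes a BEACH domain protein whose loss empties alpha granules in gray platelet syndrome, and lies on chromosome 9 from 110624789 to 110654161 (minus strand, 54 exons). It had 40.1, 37.8 and 41.8 CPM in VF 1, 2 and 3, 20.2, 22.6 and 14.6 in E12 1, 2 and 5, and 1.77, 7.91 and 4.32 in WT 50, 51 and 52. VF lay above E12 and E12 above WT, with no overlap. Nbeal2 was higher by a log2 fold change of 3.09 ± 0.50 in VF (adjusted p = 0.0016) and 2.03 ± 0.48 in E12 (adjusted p = 0.010) over WT. At 8803 bases it is as long as Vwf, and the length offset took these to 1.44 (adjusted p = 0.026) and 0.61 (adjusted p = 0.32), which ends the call in E12.

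Vps33b encodes the Sec1/Munc18 protein that works with Vipas39 in sorting cargo to alpha granules, and lies on chromosome 7 from 80269621 to 80291579 (plus strand, 23 exons). Its levels were 54.7, 51.9 and 51.9 CPM in VF 1, 2 and 3, 45.7, 43.9 and 39.2 in E12 1, 2 and 5, and 16.2, 34.9 and 50.8 in WT 50, 51 and 52. VF libraries lay within 3 CPM of each other and just above the highest WT library, and WT spanned the whole range below. Vps33b was not called in VF (log2 fold change 0.64 ± 0.36, adjusted p = 0.17) or in E12 (0.34 ± 0.36, adjusted p = 0.48) over WT. The direction turned with the length offset in both comparisons, to -0.05 in VF and -0.26 in E12.

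**Figure D2:**
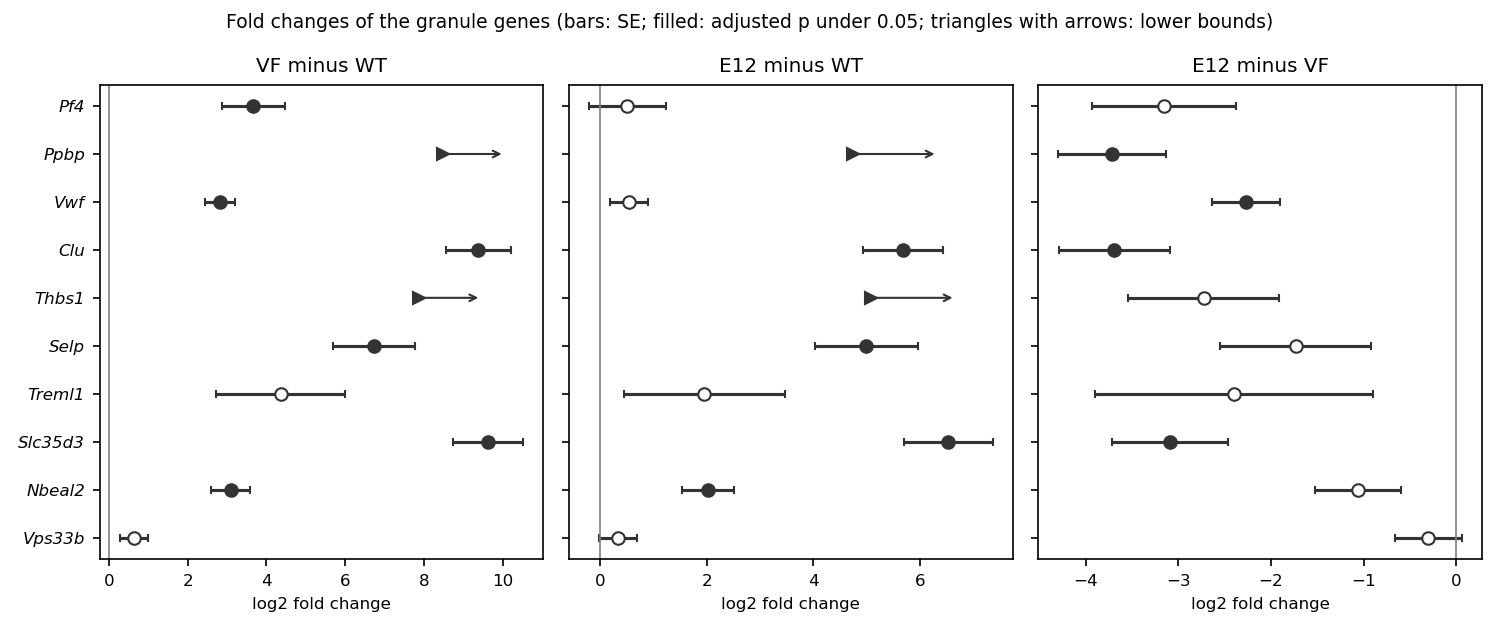
Log2 fold changes of the 10 granule genes in the 3 comparisons, with SE as bars, filled points for an adjusted p under 0.05 and arrows for lower bounds against WT groups without a read. VF over WT runs from 0.64 for Vps33b to 9.62 for Slc35d3 among fitted values, and all 10 points lie below 0 in E12 over VF.

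Compared per length, Pf4 was the most abundant of the 10 in each group, with mean RPKM of 1199 in VF, 135 in E12 and 94.6 in WT. The order below it differed between groups. In VF the next were Treml1 (35.5), Selp (30.5) and Clu (24.1), and Nbeal2 (4.53) and Thbs1 (1.52) were last. In WT Vps33b came second (13.2), followed by Vwf (1.97) and Treml1 (1.78), and Clu and Slc35d3 were at 0.0302 and 0.0216. In E12 Vps33b was second too (16.7), ahead of Selp (9.19) and Treml1 (6.74). Summed over the 10 genes, VF 1, 2 and 3 held 1424, 1180 and 959 CPM, E12 1, 2 and 5 held 253, 186 and 217, and WT 50, 51 and 52 held 180, 73.8 and 91.1. Within VF, VF 1 was the highest library for 8 of the 10 genes.

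The second question was how the mutants differed from each other. In every E12 library all 10 genes were lower than in every VF library, which held for 31.3% of all tested genes, while 28.2% were higher in the same way. The 4 called lower were Ppbp, whose log2 fold change was -3.72 ± 0.58 (adjusted p = 0.024), Clu with -3.69 ± 0.60 (adjusted p = 0.018), Slc35d3 with -3.09 ± 0.62 (adjusted p = 0.035) and Vwf with -2.27 ± 0.37 (adjusted p = 0.018). Pf4 missed the threshold at -3.15 ± 0.78 (adjusted p = 0.065), as did Thbs1 at -2.73 ± 0.82 (adjusted p = 0.14) and Treml1 at -2.40 ± 1.49 (adjusted p = 0.46). The smallest differences were those of Selp, at -1.73 ± 0.81 (adjusted p = 0.31), Nbeal2, at -1.06 ± 0.47 (adjusted p = 0.28), and Vps33b, at -0.30 ± 0.36 (adjusted p = 0.73). By role, 3 of 5 cargo genes, 0 of 2 membrane genes and 1 of 3 formation genes were called lower. Of the membrane genes 0 had an unadjusted p under 0.05. The count of 4 moved with the libraries in the fit, and so did the share of all tested genes called lower. Fitted on VF and E12 alone, all 10 were called lower, as were 22.6% of all tested genes. Without WT 50, which belongs to neither group, 9 were, as were 10.7% of all tested genes. Leaving out any 1 of the VF or E12 libraries left 0 called, or 1 without E12 2. In those fits 0.0072 to 0.079% of all tested genes were called lower. All 3 comparisons share groups with one another, so each is given by its own values only.

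**Figure D3:**
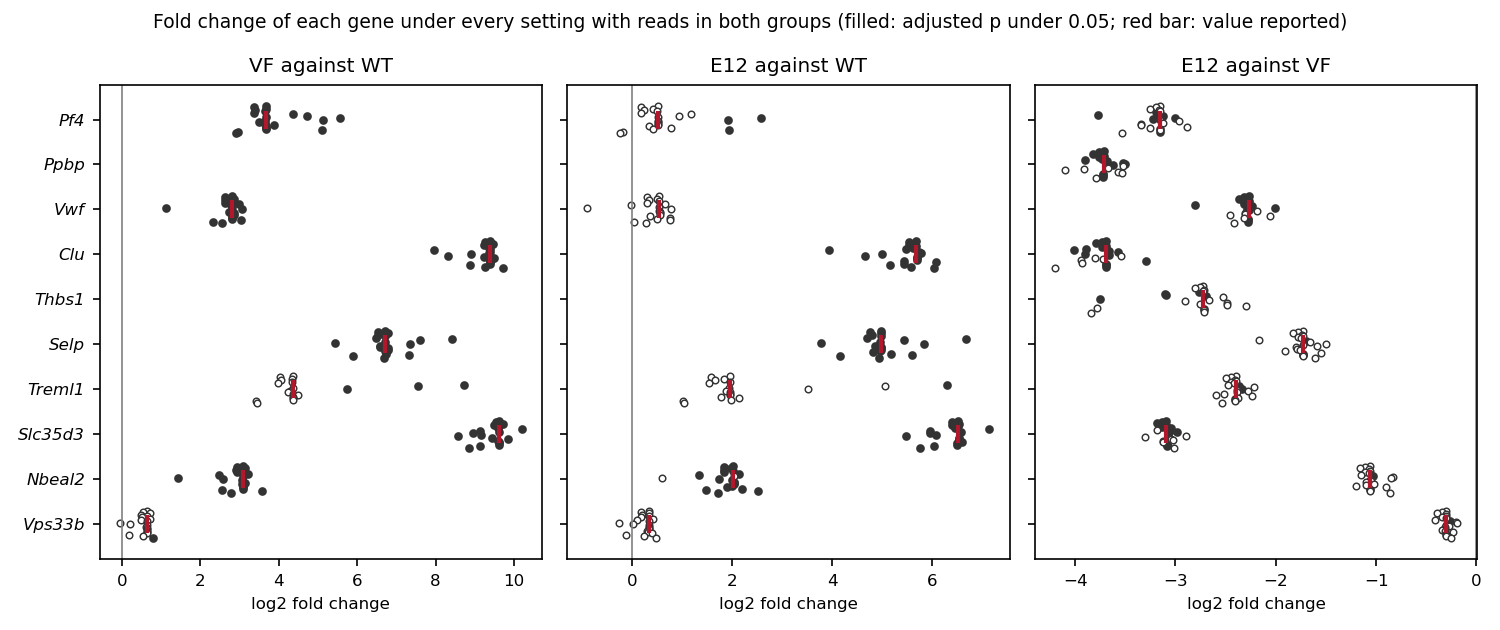
Log2 fold change of each granule gene under every processing setting that left reads in both groups, with filled points for an adjusted p under 0.05 and a red bar for the value in the text. Ppbp and Thbs1 are drawn in E12 against VF only. In E12 against VF the points of each gene stay below 0 while filled and open points mix, and in E12 against WT those of Pf4, Vwf and Vps33b cross 0.

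Gene length moved with the comparison to WT. Over all tested genes the median log2 fold change in VF over WT was -1.77 for genes under 1 kb, 0.26 for 1 to 5 kb and 1.22 for genes over 5 kb, and in E12 over WT the medians were -1.84, 0.28 and 1.11. Pf4, at 588 bases, is the 1 granule gene in the short class. Its fold change in VF lay above 0, where its class had a median below 0. With the length offset, which adjusts each library for this trend, Pf4 was called higher in E12 too (log2 fold change 2.57, adjusted p = 0.00087). Vwf, Thbs1 and Nbeal2 are in the long class, and the 6 others are between. With the offset 9 of the 10 were called higher in VF and 6 in E12, where 15.9 and 11.5% of all tested genes were called higher. Among called genes only, the share that were higher in VF fell from 57.0 to 31.7% over all genes, with 56.9 and 31.5% for E12. The median of all tested genes moved to -0.42 in VF and -0.30 in E12. Between the mutants, the medians of the 3 length classes were -0.03, -0.02 and -0.16.

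**Figure D4:**
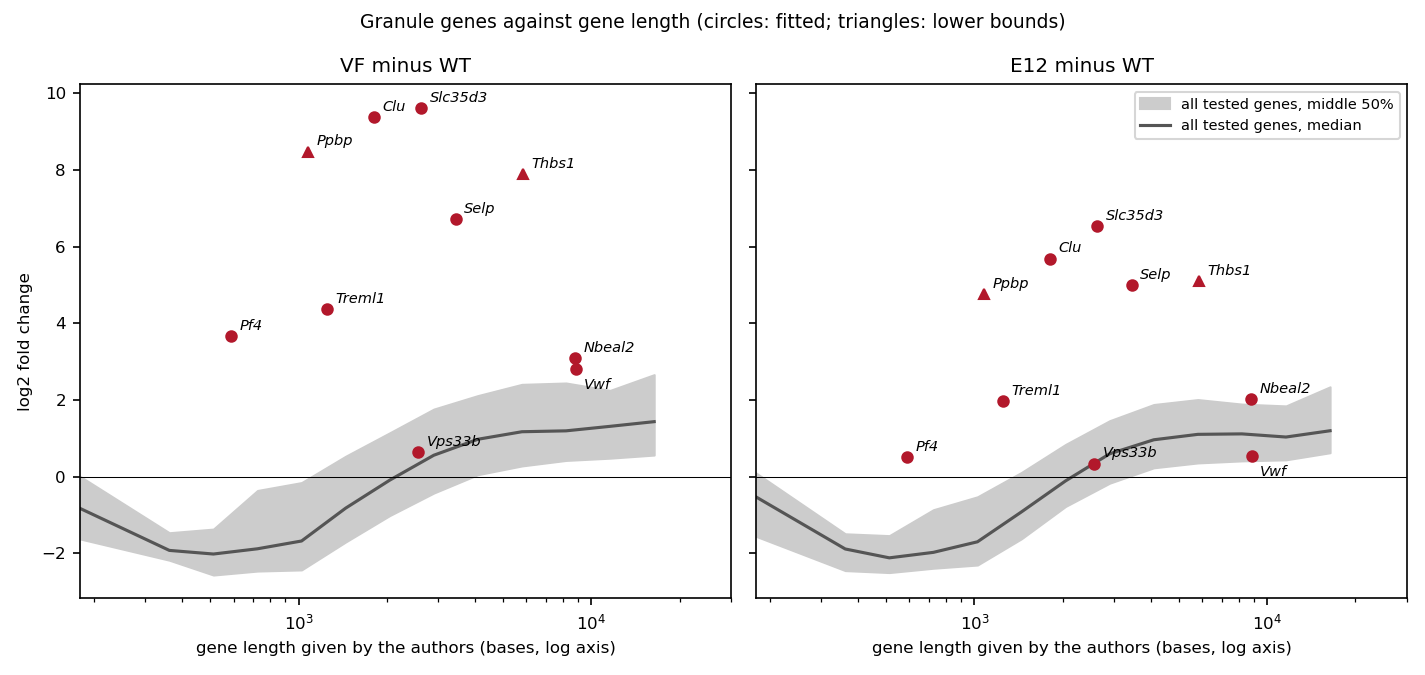
Log2 fold change over WT against the gene length given by the authors (log axis), for VF and E12, with the granule genes as points, lower bounds as triangles, and the median and middle 50% of all tested genes as line and band. The band rises with length. Ppbp, Clu, Slc35d3, Selp and Thbs1 lie well above it in both panels, and Vps33b lies inside it.

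Other genes of the granule pathway were read from 4 lists of textbook members, whose counts stand beside the shares of all tested genes given above. Those shares were 27.7% higher and 20.9% lower in VF and 23.9 and 18.1% in E12, each over WT. In E12 over VF they were 2.19% higher and 1.02% lower. Among other alpha granule cargo, 20 of 24 genes were tested, of which 12 were higher and 0 lower in VF than in WT (median log2 fold change 4.61, or 4.40 with genes that had no WT read at their lower bound). In E12 7 were higher and 0 lower (median 2.62), and E12 had 0 higher and 1 lower than VF (median -0.87). Angpt1, the ligand of the receptor Tek, had 261 ± 24.6 CPM in VF, 80.2 ± 19.3 in E12 and 9.92 ± 3.91 in WT (SD, n = 3 each), with log2 fold changes of 4.72 in VF (adjusted p = 0.00013) and 3.02 in E12 (adjusted p = 0.00085) over WT and -1.70 in E12 over VF (adjusted p = 0.029). App, the amyloid precursor protein and a protease inhibitor of platelets, had 32.2 ± 2.32, 24.5 ± 3.54 and 0.950 ± 0.735 CPM, and was higher on the log2 scale by 5.05 in VF (adjusted p = 0.00042) and by 4.65 in E12 (adjusted p = 0.0011). The cargo that was not called included Srgn, the proteoglycan core that retains Pf4 in granules, with log2 fold changes of -0.47 in VF (adjusted p = 0.52) and -1.29 in E12 (adjusted p = 0.10). Srgn, 938 bases long, had 1873 CPM in WT 50 but 484 and 319 in WT 51 and WT 52. The VF libraries, at 641 to 654 CPM, lay below WT 50 and above WT 51 and WT 52. The E12 libraries, at 323 to 414 CPM, lay between WT 52 and WT 51.

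The tethering complexes HOPS and CHEVI bring vesicles to lysosomes and to forming granules, and Vps33b and Vipas39 are the parts of CHEVI. Of the 7 subunits listed besides Vps33b, 2 were higher and 0 lower than WT in both VF (median 0.43) and E12 (median 0.39). The share of higher genes was near that of all tested genes, whose median was 0.36 in both comparisons. Between the mutants 0 were called, and 0 had an unadjusted p under 0.05. Vipas39 itself had 50.4 CPM in VF and 37.5 in WT (log2 fold change 0.43, adjusted p = 0.11). Vps39, a HOPS subunit, had 112 ± 11.1 CPM in VF, 80.3 ± 10.4 in E12 and 17.3 ± 5.34 in WT and was higher on the log2 scale by 2.69 in VF (adjusted p = 0.00032) and 2.22 in E12 (adjusted p = 0.0012). Vps18, a core subunit, had log2 fold changes of 1.61 in VF (adjusted p = 0.0091) and 1.35 in E12 (adjusted p = 0.022). Both Vps18 calls were lost with the length offset (adjusted p = 0.44 in VF and 0.78 in E12), under which the list had 1 higher and 2 lower in VF and 1 higher and 3 lower in E12.

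Dense granules and other organelles related to lysosomes are formed by the BLOC and AP-3 complexes, Rab32, Rab38 and the cargo transporters, and Slc35d3 belongs to the same process. Of 30 such genes 14 were higher and 4 lower in VF than in WT (median 0.94), 8 were higher and 5 lower in E12 than in WT (median 0.63), and 0 were higher and 3 lower in E12 than in VF (median -0.19). Slc18a2, the vesicle transporter that loads serotonin, had 222 ± 6.20 CPM in VF, 60.8 ± 16.7 in E12 and 6.53 ± 2.20 in WT. Its log2 fold changes were 5.09 in VF (adjusted p = 9.5e-05) and 3.22 in E12 (adjusted p = 0.00062) over WT, and -1.87 in E12 over VF (adjusted p = 0.018). Rab27a, a GTPase of granule docking, had 94.1 ± 1.92, 25.6 ± 8.36 and 16.5 ± 6.49 CPM, with log2 fold changes of 2.52 in VF over WT (adjusted p = 0.00094) and -1.88 in E12 over VF (adjusted p = 0.028). Hps3, a BLOC-2 subunit, was higher in E12 than in WT (log2 fold change 2.13, adjusted p = 0.0030), a call that the length offset ended (adjusted p = 0.053). Subunits of BLOC-1 were among the lower genes, with Bloc1s5 at -2.02 in VF (adjusted p = 0.0023) and Bloc1s1 at -1.96 in VF (adjusted p = 0.010) and -2.80 in E12 (adjusted p = 0.0043). Bloc1s1 is 550 bases long, and its call in VF was lost with the length offset (adjusted p = 0.12). Ap3s2, a subunit of AP-3, was lower in E12 than in WT (log2 fold change -0.84, adjusted p = 0.015).

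Granules are released by SNARE proteins and their regulators, and 20 of these genes were tested. Of them 5 were higher and 4 lower in VF (median 0.17) and 4 were higher and 3 lower in E12 (median 0.28) than in WT, which is near the shares of all tested genes. With the length offset 3 were higher and 8 lower in VF, where 15.9% of all tested genes were higher and 34.3% lower, and 2 were higher and 6 lower in E12, where 11.5% were higher and 24.97% lower. Sytl1, a synaptotagmin-like Rab27 effector, had 10.2 ± 1.01 CPM in VF, 3.04 ± 1.25 in E12 and no read in WT, so that it exceeded WT at least 269-fold in VF (adjusted p = 0.00032) and at least 80.5-fold in E12 (adjusted p = 0.00098). Stx7, an endosomal syntaxin, was higher on the log2 scale by 2.24 in VF (adjusted p = 0.0011) and 1.40 in E12 (adjusted p = 0.0098). Napa, the adaptor that recycles SNARE complexes, was lower, with log2 fold changes of -1.44 in VF (adjusted p = 0.0014) and -1.30 in E12 (adjusted p = 0.0035), and neither call held on the deposited log2 levels with limma (adjusted p = 0.37 in VF and 0.15 in E12). Stx8, another endosomal syntaxin, was lower as well, at -2.24 in VF (adjusted p = 0.0040) and -2.41 in E12 (adjusted p = 0.0047). Between the mutants 1 gene was higher and 1 lower in E12, namely Stx2 with 2.08 (adjusted p = 0.024) and the Rab27 effector Sytl4 with -1.91 (adjusted p = 0.035). Neither was called when any single VF or E12 library was left out, and in those 6 fits 0 genes of the 4 lists were called between the mutants, apart from 1 dense granule gene without E12 2.

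**Figure D5:**
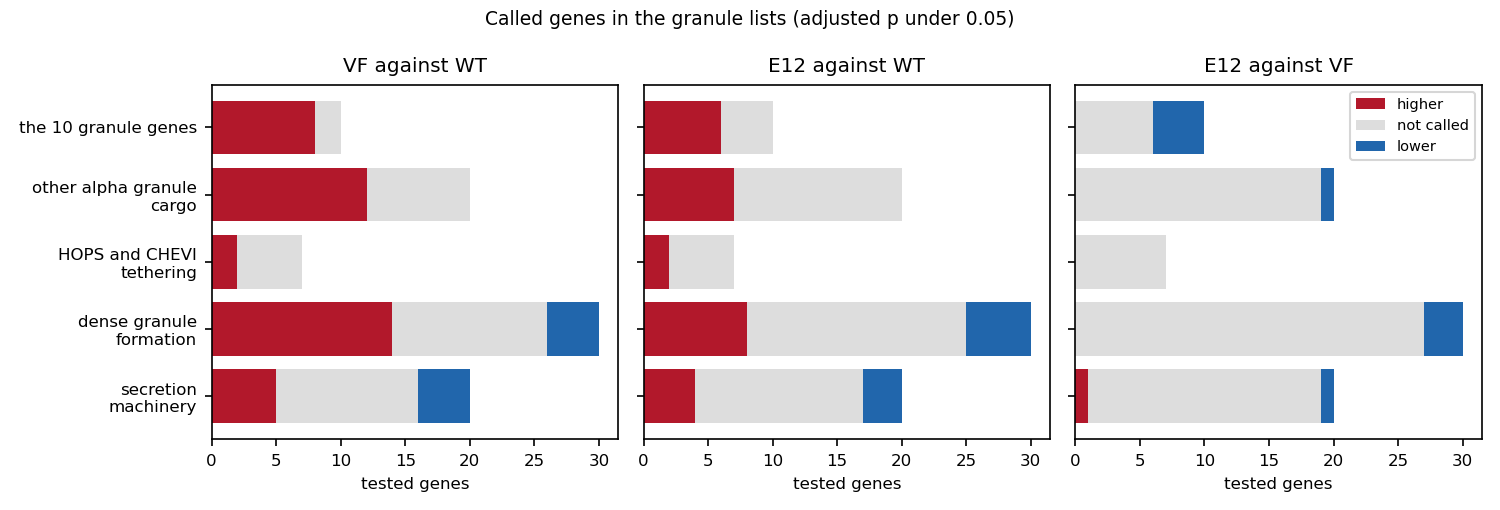
Number of tested genes called higher, called lower or not called in each comparison (adjusted p under 0.05), for the 10 granule genes and the 4 pathway lists. Cargo genes outside the 10 were called in 1 direction against WT (12 higher in VF and 7 in E12), and the lists for dense granules and secretion in both.

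Lineage markers differed between the groups too. Of 13 tested megakaryocyte markers 8 were higher and 1 lower in VF than in WT, 7 were higher and 2 lower in E12 than in WT, and 0 were higher and 3 lower in E12 than in VF. The median log2 fold change of the 13 was 4.09 in VF and 2.63 in E12 over WT, and -1.70 in E12 over VF. Of the 14 markers listed, 5 had a mean under 1 CPM in WT, against 1 in VF and 1 in E12. The summed level of the 14, to which abundant markers add most, did not follow the order of the granule genes. It was 2336 to 2535 CPM in VF, 961 to 1232 in E12 and 1385 to 1714 in WT, so that every E12 library lay below every WT library. Itgb3, the beta subunit of the platelet fibrinogen receptor, lacked any WT read, and VF exceeded it at least 3644-fold. Of 10 erythroid markers 0 were higher and 8 lower in VF than in WT, 2 were higher and 4 lower in E12 than in WT, and 8 were higher and 0 lower in E12 than in VF, with summed levels of 1320 to 1963 CPM in VF, 8644 to 12121 in E12 and 22696 to 37102 in WT. The part of these shifts in the granule values was not tested. Endothelial cells also make Vwf, Selp, Clu and Thbs1. The summed level of 12 endothelial markers was 286 to 298 CPM in VF, 277 to 343 in E12 and 250 to 447 in WT, and the defining marker Cdh5 was at 0.0125 CPM in VF, 0.0762 in E12 and 0 in WT. Of the 6 that were tested, 2 were higher (Kdr and Tie1) and 1 lower (Egfl7) in VF than in WT (median log2 fold change 1.89, 4 with an unadjusted p under 0.05), and 1 was higher and 0 lower in E12 than in WT (median 1.20). Of the 12, 6 had no read in WT (Cdh5, Flt1, Cldn5, Stab2, Lyve1 and Fabp4) and Lyve1 had none in VF. Monocyte and macrophage markers, of which 12 were in the table, summed to 106 to 216 CPM in VF, 52.1 to 161 in E12 and 18.4 to 120 in WT, with Marco at 0 in VF and WT. Of 6 genes of the MEP gate 4 were higher in VF than in WT, 2 were higher in E12 than in WT, and 1 was lower in E12 than in VF. Cd34, which the usual gate holds low, had 660 ± 23.2 CPM in VF, 211 in E12 and 3.63 in WT, a log2 fold change of 7.51 in VF over WT (adjusted p = 6.7e-05).

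The genes most like each granule gene over the 9 libraries were found by Pearson correlation of log2 CPM. The search covered the tested genes other than the 10 granule genes. It is a description in which all points share the same libraries and their depth. Slc35d3 was most like Fli1 (r = 0.996), an ETS factor of the megakaryocyte lineage, and Fgl2 (0.995). Selp was most like Zfp608 (0.996) and Il1r1 (0.994), Ppbp was most like Aspa (0.996) and Mmp2 (0.995), and Treml1 was most like Ccng2 (0.996) and Ggt5 (0.995). Clu and Thbs1 shared Myom1 (0.994 and 0.992) among their nearest genes, with Gm7173 (0.994) for Clu and Runx1t1 (0.994) for Thbs1. Nbeal2 lay nearest to Pgam1 (0.999) and Robo3 (0.996), Pf4 to Gm11532 (0.981) and Phactr1 (0.977), Vwf to Dennd1c (0.986) and Zfp820 (0.973), and Vps33b had Capza2 (0.989) among its nearest genes. Since the 10 granule genes were left out of this search, it does not show how near they lie to one another. Their own pairwise correlations ran from 0.163 (Treml1 with Vps33b) to 0.986 (Ppbp with Clu).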

How the data were processed

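RNA was measured in 9 libraries made with Smart-Seq2 (PicoPure RNA), without strand or molecular identifiers, per the labels' protocols. The deposited gene counts are whole numbers per gene, with a gene length given by the authors. The submitters' processing notes name STAR, limma and the builds GRCm38 and mm10. Which tool counted the reads, and on which annotation, is not given in the sources used here. Deposited log2 levels served only in an alternative.

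Counts were tested with edgeR 4.0.16 in R 4.3.3, by filterByExpr, TMM factors and 1 quasi-likelihood fit (glmQLFit, glmQLFTest) of all 9 libraries on the group. Two-sided p-values were adjusted (Benjamini-Hochberg) over 13608 genes with a threshold of 0.05, and SE is the log2 fold change divided by the root of its F. An exact permutation test of 3 against 3 cannot go below 0.1. Folds against 0 reads are lower bounds set by 3 reads over the group. Intervals are exact (Clopper-Pearson, 95%) and cover counting error only, since reads without identifiers are not independent molecules.

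The granule genes, the lists (other alpha granule cargo, HOPS and CHEVI tethering, dense granule and lysosome-related organelle formation, granule secretion machinery, BEACH domain proteins, CXC chemokines, markers of megakaryocytes, erythroid cells, endothelium, monocytes with macrophages, and the MEP gate) and the alternatives were chosen with earlier results of these data known. Named are the 10 genes, from each pathway list up to 2 called genes per direction and comparison with the smallest p, any paralog or marker, and the 2 genes most alike by correlation, of which 1 is not reported here. Vipas39 and Srgn were named after their values were seen.

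Alternatives were RLE and upper-quartile factors, no filter, at least 10 counts in every library of a group, a prior count of 2, DESeq2 1.42.0, limma 3.58.1 (voom, and on the deposited levels), fits of 2 groups alone, a length offset (lowess, span 0.3), a replicate block, and leaving out libraries. Positions and start-site sequences are from RefSeq, and exon counts from GENCODE, on GRCm38. Figures were drawn with matplotlib 3.10.9.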

Additional observations from a re-analysis of the deposited data

How the results depend on the processing

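In VF against WT the number of granule genes called higher was 8 or 9 under every alternative, and 0 were called lower under any. Leaving out single libraries gave 8 to 9. Over these alternatives 15.9% (length offset) to 36.3% (limma-voom) of all tested genes were called higher in VF, and 14.1 to 34.3% lower. In E12 against WT the number of granule genes called higher was 5 to 8, and 6 to 8 without single libraries. There 11.5% (length offset) to 30.4% (limma-voom) of all tested genes were called higher. Over all genes, E12 against WT gave 2967 calls with 2 groups alone in place of 5717, and 3612 to 7339 without single libraries, the lowest without E12 2.

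E12 against VF depended most on the setting. The 437 calls over all genes became 1695 with DESeq2, 924 with limma-voom, 1784 with limma on the deposited levels, 6412 with 2 groups alone, 1471 with the length offset, 2553 without WT 50 and E12 5 together, and 19 to 3290 without single libraries (lowest without VF 3, highest without WT 50). The 4 granule genes called lower became 10 with 2 groups alone, 7 without WT 50 and E12 5, and 0 to 9 without single libraries. In the same fits 22.6%, 7.10% and 0.0072 to 10.7% of all tested genes were called lower, in place of 1.02%. The share of calls higher in E12 was 68.2%, against 50.7% with DESeq2, 44.5% with limma-voom, 54.5% on the deposited levels, 52.8% with 2 groups alone, 76.3% with the length offset, 75.7% with no filter, 90.4 to 95.6% without any 1 VF or E12 library and 54.5 to 59.0% without any 1 WT library. With 2 groups alone, cargo outside the 10 had 10 lower in E12 than in VF in place of 1. Dense granule genes had 4 higher and 12 lower, secretion genes 5 higher and 8 lower, and HOPS and CHEVI subunits 1 higher and 2 lower. In that fit 25.4% of all tested genes were higher and 22.6% lower.

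Directions turned in E12 against WT for Pf4 (-0.25 to 1.94 without single WT, VF or E12 libraries, below 0 without WT 51 or WT 52), Vwf (-0.015 on the deposited levels, -0.90 with the length offset) and Vps33b (-0.26 with the length offset, -0.11 to 0.48 without single libraries, below 0 without WT 50), and in VF against WT for Vps33b (-0.055 with the length offset). No value below 0 was called, and Pf4 was called higher at 1.94, without WT 50 (adjusted p = 0.0024, edgeR). The cause of the turned directions was not tested. Nbeal2 in E12 against WT had an adjusted p of 0.051 with 2 groups alone.

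VF and E12 share the replicate numbers 1 and 2. Deviations from the group means correlated at 0.0097 for the pair numbered 1 and at 0.10 for the pair numbered 2, against 0.0165 and 0.13 across numbers. So few pairs cannot show whether libraries of the same number share more than the number, and the labels do not say. With a replicate block, in which VF 3 and E12 5 have terms of their own, 0 genes and 0 granule genes were called by edgeR, and 546 genes, 6 of them granule genes, had an unadjusted p under 0.05. WT shares no number with either mutant, and no paired analysis was possible because of this. Genes with few WT reads (0 for Ppbp and Thbs1, 5 for Clu and Slc35d3) are those whose folds depth limits.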

Other observations

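Nbeal2 has relatives with the same BEACH domain, of which 8 were tested. In VF against WT 2 were called higher and 1 lower, where 27.7% of all tested genes were higher and 20.9% lower. The higher genes were Wdfy3 (log2 fold change 2.02, adjusted p = 0.0091) and Wdfy4 (1.80, adjusted p = 0.0059), and the lower was Wdr81 (-1.04, adjusted p = 0.0073). With the length offset neither higher call held (adjusted p = 0.58 and 0.97). In E12 none was called against WT by edgeR (3 with an unadjusted p under 0.05). There 23.9% of all tested genes were higher and 18.1% lower. Wdr81 was higher in E12 than in VF (1.25, adjusted p = 0.030). Lyst, the gene of Chediak-Higashi syndrome, in which dense granules are lost, had a log2 fold change of 2.52 in VF over WT and was not called (adjusted p = 0.076).

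Of 13 other CXC chemokine genes 10 were in the table and 3 were tested. Cxcl5, which is also in the cargo list, was called higher in VF than in WT (59 reads against 0, at least 20.04-fold, adjusted p = 0.011). Cxcl10 and Cxcl12 were not called in VF (adjusted p = 0.82 and 0.38), and E12 had 0 Cxcl5 reads.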
